A study of Mus musculus with 16 samples.

Results

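The proteins of the mitochondrial ribosome were examined in heart muscle cells through the genes that encode them. The genes were those whose symbol starts with Mrpl or Mrps followed by a digit, pseudogene copies left out, with a mean count of 10 or more, and 78 of the 35682 genes in the table met this rule. Of these, 49 carry the Mrpl prefix of the large subunit and 29 the Mrps prefix of the small subunit. No gene with such a symbol fell below the mean count of 10. The lowest was Mrpl23 with a mean count of 30.3, followed by Mrps10 with 65.4. RNA was sequenced from adult ventricular myocytes of 16 mice, 8 of the genotype B3AR-Tg and 8 wild-type (WT) littermates. All 16 mice had undergone TAC surgery (transverse aortic constriction, a narrowing of the aorta that loads the left ventricle) 9 weeks earlier, so the comparison is of genotype under pressure overload and holds no unoperated animals. B3AR-Tg is named for the beta-3 adrenergic receptor, and the promoter that drives the transgene, its species and the sex of the mice are not given in the sources used here.

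The mitochondrial ribosome, or mitoribosome, translates the few messenger RNAs that the mitochondrial genome encodes, all of them for subunits of the respiratory chain and ATP synthase. Its ribosomal RNAs are mitochondrial, but every one of its proteins is encoded in the nucleus, made on cytosolic ribosomes and imported. Many of these proteins have bacterial homologues (names starting with u or b in the unified nomenclature, such as uL14m), while others exist only in mitochondria (names starting with m, such as mS27). Heart muscle depends on respiration for contraction and is rich in mitochondria.

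WT libraries held 9.10e+06 ± 1.58e+06 counts and B3AR-Tg libraries 1.08e+07 ± 2.53e+06 (mean ± SD, n = 8 each). The receptor gene of mouse, Adrb3, had 0 to 4 counts in WT and 0 to 3 in B3AR-Tg and was too low to be tested, so it does not check the genotype labels. Markers of cardiomyocytes summed to 31994 to 42523 CPM (TMM-scaled counts per library total) in WT and 38486 to 45122 in B3AR-Tg, and none was at 0. Of these 6 only Ryr2 passed the test, higher in B3AR-Tg (log2 fold change 0.46, edgeR adjusted p = 0.0359). Fibroblast markers summed to 37.8 to 119 CPM in WT and 11.0 to 46.5 in B3AR-Tg. All 6 had a log2 fold change below 0, and 4 of the 6 passed the test. Endothelial markers summed to 102 to 156 and 50.8 to 196 CPM, mural cell markers to 87.2 to 162 and 47.4 to 142 CPM, and leukocyte markers to 4.15 to 14.3 and 0.706 to 5.99 CPM, WT first. Of these 3 groups, only the endothelial marker Pecam1 passed the test, and only 2 of the 6 leukocyte markers were tested. All 6 markers of cardiac load (Nppa, Nppb, Myh7, Acta1, Ankrd1 and Xirp2) fell in B3AR-Tg, from a sum of 7848 to 25727 CPM to one of 3798 to 10528 CPM.

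Of the 78 mitoribosomal genes, 2 passed the test of a genotype difference. Mrpl14 of the large subunit was higher and Mrps27 of the small subunit was lower in B3AR-Tg, and the other 76 did not pass the test. All 78 passed the low-count filter, so every member was tested. The 2 genes called are 2.56% of the members, and the background is 4.91% of all 10945 tested genes (edgeR quasi-likelihood test, Benjamini-Hochberg adjusted p under 0.05). By direction the background is 2.03% higher and 2.88% lower. At an unadjusted p under 0.05 there were 3 members higher, against a background of 8.71%, and 6 lower, against 10.6%. Together these 9 are 11.5% of the members, against 19.3% of all tested genes. DESeq2 and limma voom each called the same 2 members and no other. In no member were the 2 groups of animals fully apart, which was so for 0.448% of all tested genes. As in all bulk RNA, fewer cells of a type and less RNA per cell cannot be told apart.

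The differences were small in size. The median log2 fold change, B3AR-Tg over WT, was 0.00052 over the 78 members and 0.0060 over all tested genes. The median absolute log2 fold change was 0.08 in the members and 0.15 in all tested genes. Members were also measured more tightly than the typical tested gene, with a median standard error of 0.10 log2 units against 0.14, and a median SD between animals of 1 genotype of 0.19 log2 units against 0.28. The 95% interval of the log2 fold change lay inside plus or minus 0.5 for 74 members, 94.9% of them, against a background of 55.8% of all tested genes. The 4 members whose interval reached beyond that were Mrpl14, Mrps6, Mrpl40 and Mrpl23. Above 0 were 41 members and below 0 were 37.

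**Figure D1:**
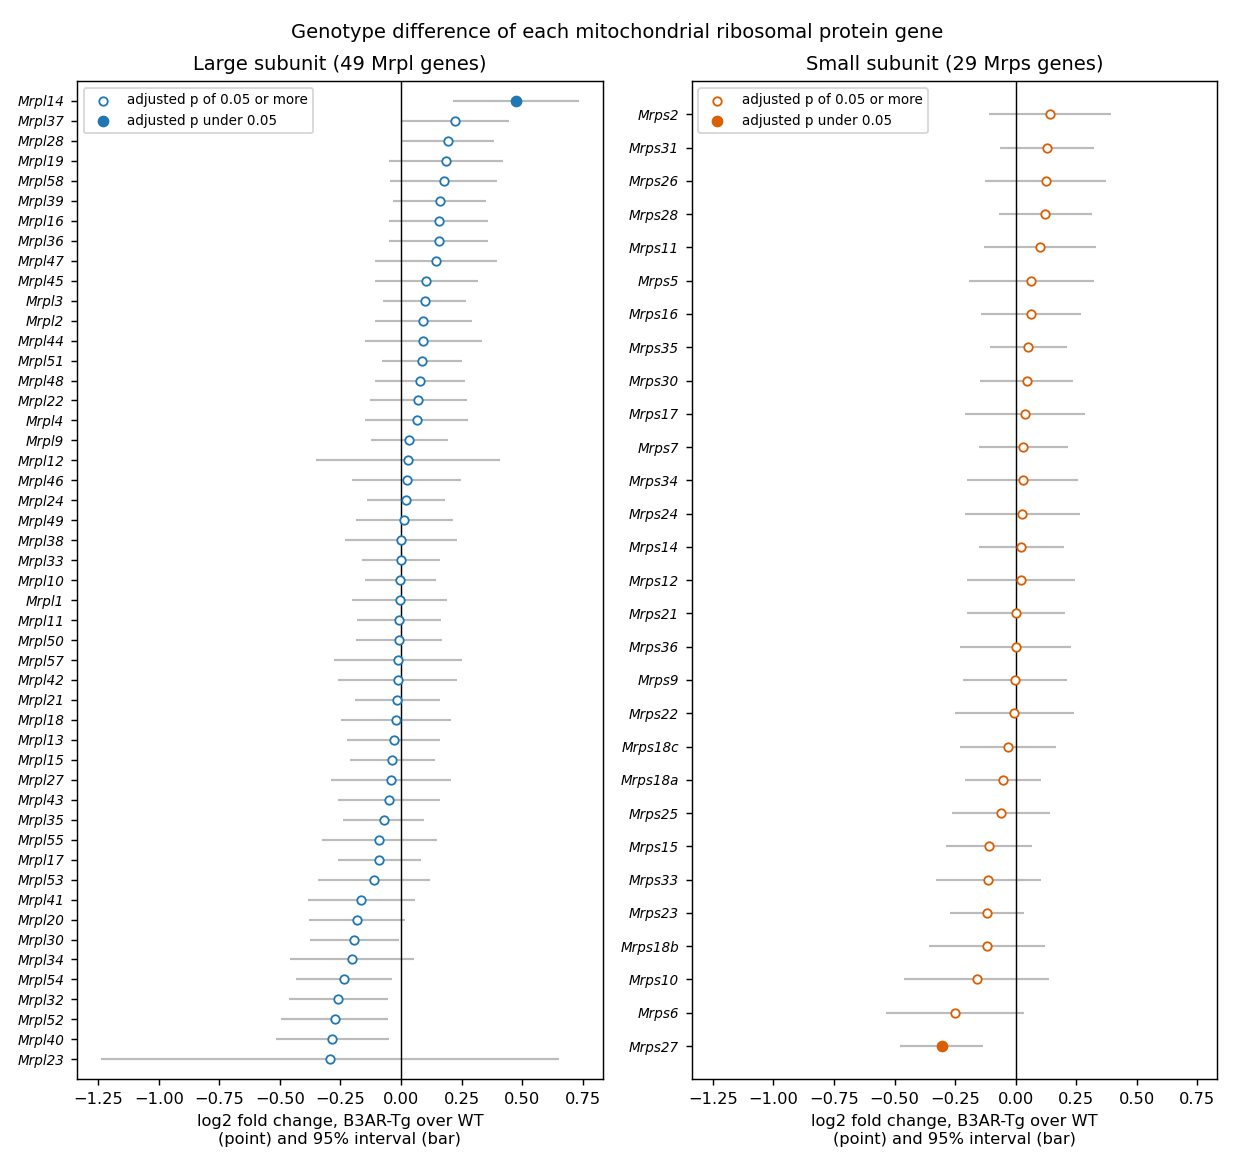
Log2 fold change of each of the 78 genes, B3AR-Tg over WT (point, horizontal axis) with its 95% interval (bar), for the 49 Mrpl genes on the left and the 29 Mrps genes on the right, in order of fold change. Filled points, Mrpl14 on the left and Mrps27 on the right, have an edgeR adjusted p under 0.05, and Mrpl23 has the widest bar, from −1.24 to 0.65.

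Mrpl14 (ENSMUSG00000023939, chromosome 17) encodes uL14m, a homologue of bacterial L14 that sits on the face of the large subunit that meets the small one. Its level was between 10.3 and 17.2 CPM in WT, with a median of 13.2, and between 13.9 and 22.7 CPM in B3AR-Tg, with a median of 18.7. All 8 B3AR-Tg animals lay above the WT median and 5 of them above the highest WT animal, so the groups overlapped in the lower B3AR-Tg animals. The means were 13.0 ± 2.44 CPM in WT against 18.1 ± 3.01 in B3AR-Tg (SD, n = 8 each). Its log2 fold change was 0.47 ± 0.13 (standard error, 95% interval 0.21 to 0.73, edgeR adjusted p = 0.0328), a 1.39-fold higher level. The call was lost when any 1 of 8 animals was left out (WT replicates 2, 4, 6 or 7, or B3AR-Tg replicates 1, 2, 5 or 8), with an edgeR adjusted p of up to 0.0769 and a log2 fold change between 0.42 and 0.48 in those 8 refits. It was also lost with the marker level of other cell types as a covariate, where the log2 fold change was 0.24 (edgeR adjusted p = 0.492). The fibroblast and load markers given above fell in the same B3AR-Tg animals, and the part of the load markers in this difference was not tested.

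In GENCODE M21, Mrpl14 overlaps Tmem63b on the opposite strand, and the 2 genes start close together and point apart. Tmem63b, a member of a family of membrane channels, averaged 45.1 ± 4.91 CPM in WT against 59.4 ± 7.65 in B3AR-Tg (log2 fold change 0.40 ± 0.09 standard error, edgeR adjusted p = 0.0138). The libraries were stranded, per the labels' protocols, but whether the counting used the strand is not given in the sources used here, so reads from the shared stretch may not have been separated between these genes. Malsu1, whose protein binds uL14m and keeps the subunits from joining too early, averaged 18.3 ± 2.87 CPM in WT against 18.7 ± 2.33 in B3AR-Tg (log2 fold change 0.03, edgeR adjusted p = 0.929). Both genes were picked after the values of Mrpl14 were seen.

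Mrps27 (ENSMUSG00000041632, chromosome 13) encodes mS27, a mitochondrion-specific protein of the small subunit built from pentatricopeptide repeats, a fold that often binds RNA. Its level was between 38.5 and 50.8 CPM in WT, with a median of 44.1, and between 30.9 and 40.4 CPM in B3AR-Tg, with a median of 37.4. All 8 B3AR-Tg animals lay below the WT median and 5 of them below the lowest WT animal. The means were 45.0 ± 4.66 and 36.3 ± 3.63 CPM (SD, n = 8 each). Its log2 fold change was −0.31 ± 0.08 (standard error, 95% interval −0.48 to −0.14, edgeR adjusted p = 0.0341). The call was lost when any 1 of 10 animals was left out (WT replicates 1, 4, 6, 7 or 8, or B3AR-Tg replicates 2, 4, 5, 7 or 8), with an edgeR adjusted p of up to 0.0858. It was also lost with scaling by library total only (log2 fold change −0.23, edgeR adjusted p = 0.116), without the low-count filter (adjusted p = 0.0844) and with the marker covariate (−0.37, adjusted p = 0.137). Mrps27 overlaps 6430562O15Rik on the opposite strand in GENCODE M21, so the same limit on shared reads holds as for Mrpl14.

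**Figure D2:**
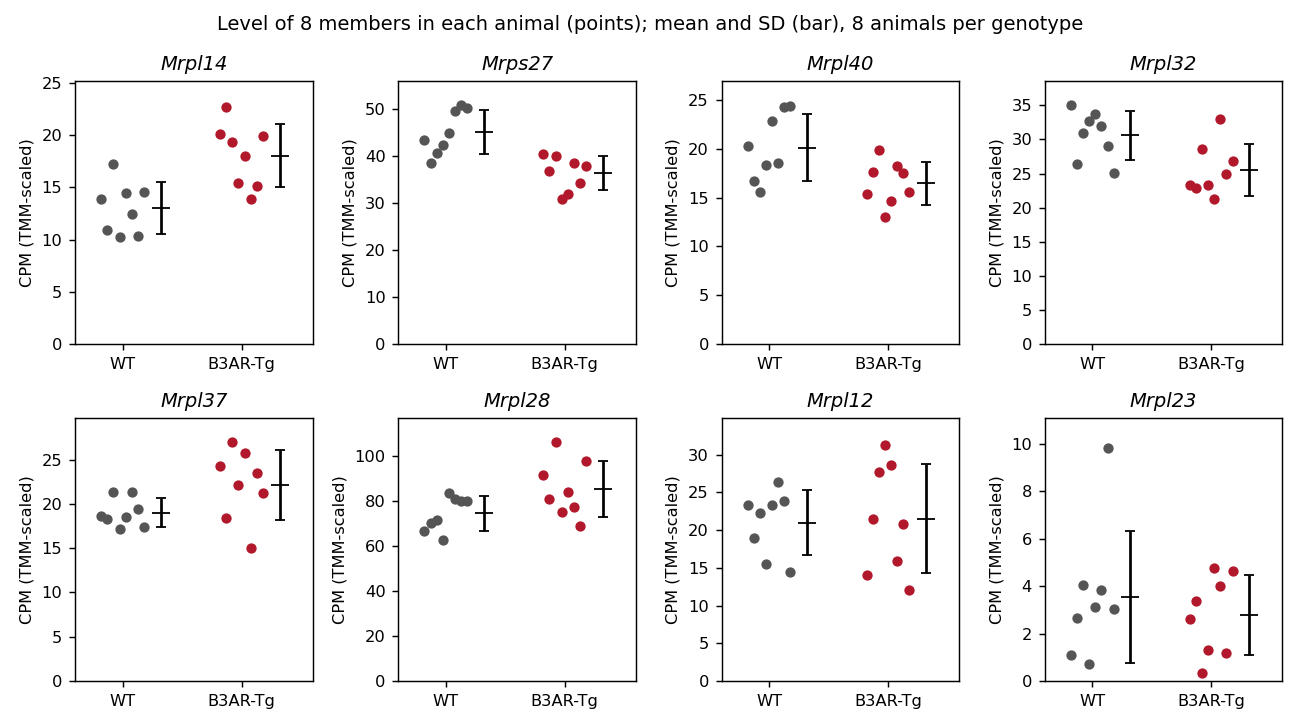
Level in CPM (vertical axis, from 0) of Mrpl14, Mrps27, Mrpl40, Mrpl32, Mrpl37, Mrpl28, Mrpl12 and Mrpl23, with 1 point per animal, the mean (short line) and SD (bar), in 8 WT and 8 B3AR-Tg mice. In Mrpl14 the B3AR-Tg points start at 13.9 CPM where WT reaches 17.2, in Mrps27 they end at 40.4 CPM where WT starts at 38.5, and in the other 6 genes the groups overlap more widely.

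The starts of these 2 genes are shown because they are the only members called. The sequences are the 100 bases just before the start of each gene, read 5′ to 3′ on the plus strand of GRCm38.p6 from RefSeq, chr17:45686249-45686348 for Mrpl14 and chr13:99344686-99344785 for Mrps27. Capitals mark a match on the reverse strand to CCGGAAGT, a core that ETS factors such as GABPA bind.
Mrpl14: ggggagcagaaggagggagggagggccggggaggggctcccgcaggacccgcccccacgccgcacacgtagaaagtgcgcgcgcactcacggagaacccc
Mrps27: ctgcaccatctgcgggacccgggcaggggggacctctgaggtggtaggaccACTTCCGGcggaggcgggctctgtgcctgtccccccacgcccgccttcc
A set of 3 motifs linked to mitochondrial genes was searched on both strands of RefSeq promoter windows of 300 bases, the ETS core CCGGAAGT, the NRF1 motif GCGCA followed by its reverse complement TGCGC, and the YY1 motif AAGATGGC. The window of Mrpl14 held none of these letters, and that of Mrps27 held the ETS core shown and, outside the stretch shown, the YY1 motif.

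Of the 78 members, 69 were matched to 75 promoter windows. Windows of a chromosome that holds no member were left out of the search. The ETS core was in 12 of the 75 windows (16%). It was in 8.45% of the 11012 windows of tested genes that were searched and 3.89% of all 32851 windows searched. The YY1 motif was also in 12 (16%), against 4.58% and 2.75%. The NRF1 motif was in 3 (4%), those of Mrpl32, Mrpl39 and Mrpl9, against 2.12% and 0.971%. Any of the 3 was in 25 windows (33.3%), against 14.5% of those of tested genes. The genotype difference was near 0 on either side of this split. The median log2 fold change was −0.01 in members with the ETS core, 0.02 in those with the YY1 motif and 0.03 in those with the NRF1 motif.

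The large subunit showed about as many members above 0 as below. Of its 49 genes 24 had a log2 fold change above 0 and 25 below, the median was −0.0024, and 1 was called higher and 0 lower. After Mrpl14, the largest positive values were those of Mrpl37, Mrpl28, Mrpl19 and Mrpl58. Mrpl37, which encodes the mitochondrion-specific mL37, averaged 19.0 ± 1.61 CPM in WT against 22.1 ± 3.92 in B3AR-Tg (log2 fold change 0.22, edgeR adjusted p = 0.257). Mrpl28 (bL28m) was at 74.5 ± 7.65 and 85.1 ± 12.4 CPM (0.19, adjusted p = 0.250). Mrpl19 (bL19m) had a log2 fold change of 0.19 (adjusted p = 0.395). Mrpl58 encodes mL62, a relative of release factors that can free peptides from stalled ribosomes, and its log2 fold change was 0.18 (adjusted p = 0.391). All 8 B3AR-Tg animals lay above the WT median for Mrpl58, although the difference did not pass the test.

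At the other end of the large subunit were Mrpl23, Mrpl40, Mrpl52, Mrpl32 and Mrpl54, none of which passed the test. Mrpl40 (mL40, in the central protuberance, the crown of the large subunit) averaged 20.1 ± 3.42 CPM in WT against 16.5 ± 2.20 in B3AR-Tg (log2 fold change −0.28, edgeR adjusted p = 0.156). Mrpl52 (mL52) was at 13.7 ± 1.44 and 11.4 ± 1.67 CPM (−0.27, adjusted p = 0.15), with all 8 B3AR-Tg animals below the WT median. Mrpl32 encodes bL32m, a protein that must be cut by a mitochondrial protease before it enters the ribosome. Its mean level was 30.6 ± 3.53 CPM in WT against 25.5 ± 3.84 in B3AR-Tg (−0.26, adjusted p = 0.138), and 5 of 8 B3AR-Tg animals were below the lowest WT animal. Mrpl54 (mL54) was at 41.7 ± 3.76 and 35.4 ± 5.69 CPM (−0.24, adjusted p = 0.167). Mrpl30 (uL30m), 1 of the most abundant members, was at 131 ± 19.8 and 114 ± 8.11 CPM (−0.19, adjusted p = 0.235), again with all 8 B3AR-Tg animals below the WT median.

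The functional sites of the large subunit were looked at next, with sites assigned after the values were known. At the exit of the peptide tunnel, where new proteins leave towards the inner membrane, 8 genes had a median log2 fold change of 0.08, from −0.29 in Mrpl23 to 0.16 in Mrpl39, and 0 were called. In the central protuberance 8 genes had a median of −0.01, from −0.28 in Mrpl40 to 0.18 in Mrpl58, and 0 were called. The stalks were close to 0. Their 4 genes (Mrpl1, Mrpl10, Mrpl11 and Mrpl12) lay between −0.01 and 0.03, and 0 were called. Of the genes at these 3 sites only Mrpl40 had an unadjusted p under 0.05, and neither DESeq2 nor limma called any of them. Mrpl12, the stalk protein bL12m, varied widely between animals of both genotypes. It lay between 14.4 and 26.3 CPM in WT, and from 12.0 to 31.3 in B3AR-Tg (log2 fold change 0.03 ± 0.18 standard error, edgeR adjusted p = 0.957), so a difference of the size seen in Mrps27 was within its interval of −0.35 to 0.41.

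In the small subunit 17 of 29 genes lay above 0 and 12 below, the median log2 fold change was 0.02, and 0 were called higher and 1 lower. Mrps2 (uS2m), Mrps31 (mS31) and Mrps26 (mS26) had the largest positive values, 0.14, 0.13 and 0.12, with edgeR adjusted p of 0.551, 0.470 and 0.609. Below Mrps27 in size, Mrps6 (bS6m) averaged 7.56 ± 1.18 CPM in WT against 6.33 ± 1.15 in B3AR-Tg (−0.25, adjusted p = 0.333). Mrps10 (uS10m) had a log2 fold change of −0.16 (adjusted p = 0.578). The 6 genes assigned to the path of the messenger RNA (Mrps2, Mrps5, Mrps7, Mrps11, Mrps12 and Mrps24) lay between 0.02 and 0.14, and 0 were called. Mrps5 (uS5m) was at 0.07 (adjusted p = 0.820).

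Several Mrps symbols do not match the place of the protein, and none of these genes passed the test. Mrps18a, Mrps18b and Mrps18c encode 3 relatives of bacterial S18, of which structures place mL66 (Mrps18a) in the large subunit and mS40 (Mrps18b) and bS18m (Mrps18c) in the small. Their log2 fold changes were −0.05, −0.12 and −0.03, with edgeR adjusted p of 0.757, 0.611 and 0.899. Mrps30 encodes mL65, a large-subunit protein by structure, and its log2 fold change was 0.05 (adjusted p = 0.833). Mrps36 is not part of the mitoribosome and belongs to the 2-oxoglutarate dehydrogenase complex. Its mean level was 42.8 ± 6.18 CPM in WT against 42.8 ± 9.29 in B3AR-Tg. Sorted by structure, 51 large-subunit genes had a median log2 fold change of −0.0024 with 1 called, and 26 small-subunit genes one of 0.02 with 1 called. Sorted by origin, the 46 genes with a bacterial homologue had a median of 0.01 and the 31 mitochondrion-specific genes one of −0.0064.

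As a mean over members, the balance of the subunits within each animal differed between genotypes by less than the spread between animals, and as a median it did not. The mean log2 CPM of the large-subunit genes was 5.05 ± 0.13 in WT and 5.05 ± 0.12 in B3AR-Tg (SD, n = 8 each). That of the small-subunit genes was 4.80 ± 0.11 and 4.79 ± 0.13. Large minus small was 0.25 ± 0.033 in WT, between 0.20 and 0.30, and 0.26 ± 0.044 in B3AR-Tg, between 0.20 and 0.35. The difference between genotypes was 0.01 log2 units as a mean over members. With the median over members in place of the mean, large minus small was 0.20 ± 0.084 in WT, between 0.073 and 0.33, and 0.079 ± 0.056 in B3AR-Tg, between −0.022 and 0.13. That difference of −0.12 was larger than the SD in either genotype, and the groups overlapped, so the 2 summaries do not give the same account of the balance. Summed over the 78 genes, the mean level was 2948 ± 258 CPM in WT against 2940 ± 271 in B3AR-Tg. These genes took 0.286% ± 0.0167 of all counts in WT and 0.302% ± 0.0246 in B3AR-Tg.

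**Figure D3:**
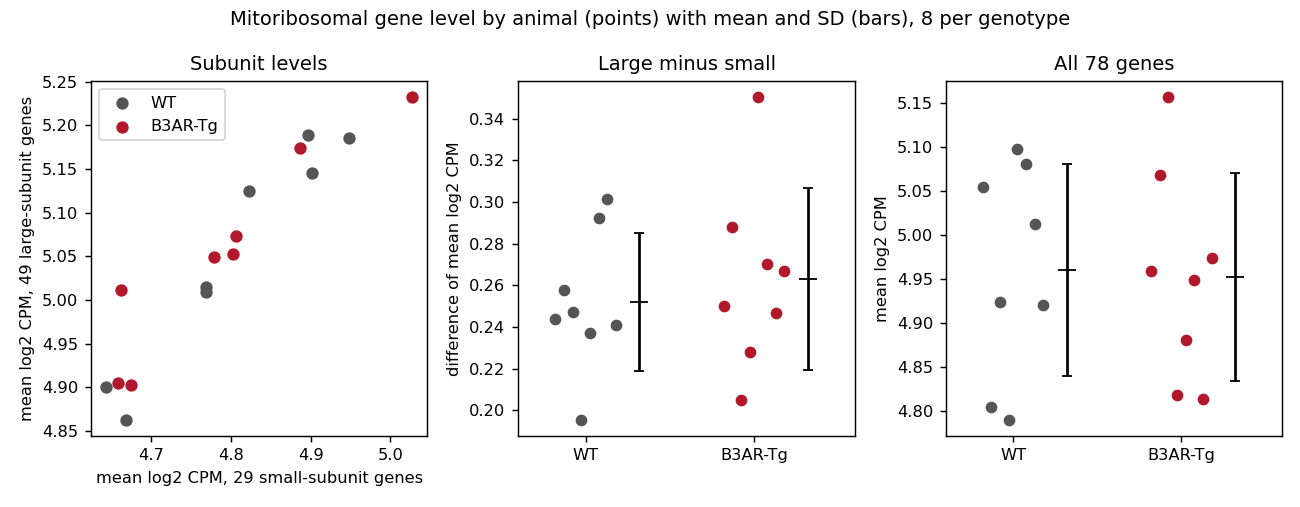
Level per animal, with mean log2 CPM of the 49 large-subunit genes against that of the 29 small-subunit genes (left), large minus small (middle) and the mean log2 CPM of all 78 genes (right), for 8 WT and 8 B3AR-Tg mice, with bars for the mean and SD. Animals high in one subunit are high in the other, and the genotypes overlap in all 3 panels, with a mean difference of large minus small of 0.25 in WT and 0.26 in B3AR-Tg.

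Members differed among themselves far more than between genotypes. Per kilobase of transcript the mean level over all 16 animals ran from 4.11 CPM per kb for Mrps5 to 222 for Mrpl42, a 54.1-fold range with a median of 24.1. The highest were Mrpl42 (mL42) at 222, Mrpl30 at 185, Mrps21 (bS21m) at 177, Mrpl33 (bL33m) at 129 and Mrpl18 (uL18m) at 79.6 CPM per kb. Mrps33 (mS33) at 72.0 and Mrps36 at 67.3 followed among the Mrps genes. The lowest after Mrps5 were Mrps26 at 4.11, Mrps25 at 4.23, Mrpl19 at 4.52 and Mrpl23 at 4.56 CPM per kb. Of the 77 pairs of neighbours in this order, only 3 kept their order in all 16 animals, Mrps21 over Mrpl33, Mrpl33 over Mrpl18 and Mrpl54 over Mrpl34. Mrpl42 was above Mrpl30 in 14 of 16 animals, and Mrpl30 above Mrps21 in 9 of 16. The 2 genes that were called lie in the middle of the order, Mrpl14 as number 40 and Mrps27 as number 46 from the top. Lengths are those of GENCODE M21 transcripts and need not match the transcripts behind the counts.

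**Figure D4:**
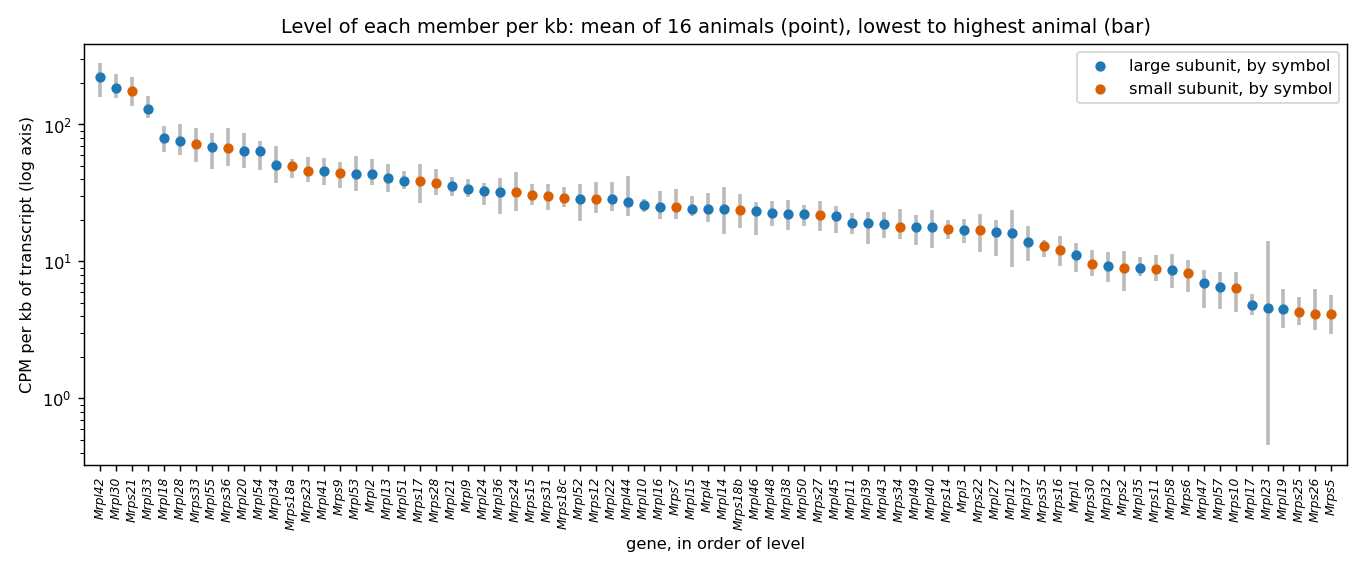
Mean level per kilobase of transcript over 16 animals (point, log axis) with the lowest and highest animal (bar), for all 78 genes in order of level, large-subunit symbols in blue and small-subunit symbols in orange. Levels run from 222 CPM per kb for Mrpl42 to 4.11 for Mrps5, neighbouring bars mostly overlap, and Mrpl23 has the widest bar, from 0.453 to 14.2.

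The count of Mrpl23 (uL23m, at the tunnel exit, chromosome 7) is uncertain, because a processed pseudogene on chromosome 2, Mrpl23-ps1, matches its coding sequence without a difference over 421 of 516 bases. A stretch of 120 bases from the shared part is shown, read from GENCODE M21 transcripts (positions 96 to 215 of the Mrpl23 coding sequence and 35 to 154 of the Mrpl23-ps1 transcript).
Mrpl23: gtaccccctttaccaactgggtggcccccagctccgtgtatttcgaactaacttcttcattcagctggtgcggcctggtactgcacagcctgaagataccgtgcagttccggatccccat
Mrpl23-ps1: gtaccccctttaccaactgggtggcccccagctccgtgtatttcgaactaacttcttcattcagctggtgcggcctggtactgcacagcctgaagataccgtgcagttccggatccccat
No base differs between the lines, and a read from within this stretch cannot be told apart between the 2 genes. The table gave 484 counts to Mrpl23 over all 16 animals and 5561 to Mrpl23-ps1, which is 8.01% and 92.0% of the pair. Mrpl23 averaged 3.53 ± 2.80 CPM in WT against 2.77 ± 1.70 in B3AR-Tg, with 3 to 67 counts per animal (log2 fold change −0.29 ± 0.45 standard error, edgeR adjusted p = 0.775). Without WT replicate 7, its highest animal, the log2 fold change was 0.11. Mrpl23-ps1 was at 36.1 ± 5.78 and 34.6 ± 4.62 CPM (−0.06, adjusted p = 0.812). Of the 78 members, 26 had a transcript listed under another gene name with at least 90% identity over at least 50% of the coding sequence. For 2 of these, Mrpl33 and Mrpl53, that other gene overlaps the member itself on the same strand. Such a gene was in the table for 25 of the 26, and its counts exceeded 10% of those of the member for Mrpl23 and Mrpl48.

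Among members, the log2 fold change was higher in genes with longer transcripts. Spearman's rho was 0.35 over the 78 genes, 0.35 in the large and 0.36 in the small subunit, and 0.10 over the 10931 tested genes with a length. These are correlations across genes that share the same 16 libraries, and genes are not independent replicates. The 39 shorter members had a median log2 fold change of −0.02, with 16 above 0, and the 39 longer members one of 0.03, with 25 above 0. All tested genes split at the same length also differed. The 1406 shorter ones had a median of −0.06, with 542 above 0, and the 9525 longer ones had a median of 0.02, with 5046 above 0. Mean log2 CPM of the shorter members minus that of the longer ones was −0.23 ± 0.034 in WT and −0.30 ± 0.045 in B3AR-Tg (SD, n = 8 each). Each animal's slope on log2 length over all tested genes used each gene's log2 CPM less its mean over the 16 animals. These slopes sum to 0 over the animals by construction, so a slope of 0 is that of the average animal. They were −0.011 ± 0.044 in WT and 0.011 ± 0.075 in B3AR-Tg, and the mirrored means follow from this centring. The 4 animals with the highest mitoribosomal level were all among the 5 with the lowest slopes, and the 4 animals with the lowest level all had slopes above 0, as had 9 of the 16. Members have a median transcript length of 1225 bases, against 2782 for all tested genes. With an offset for transcript length in the fit, an alternative chosen after seeing the data, Mrpl14 and Mrps27 were still called. The part of length in the differences between animals was not tested.

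**Figure D5:**
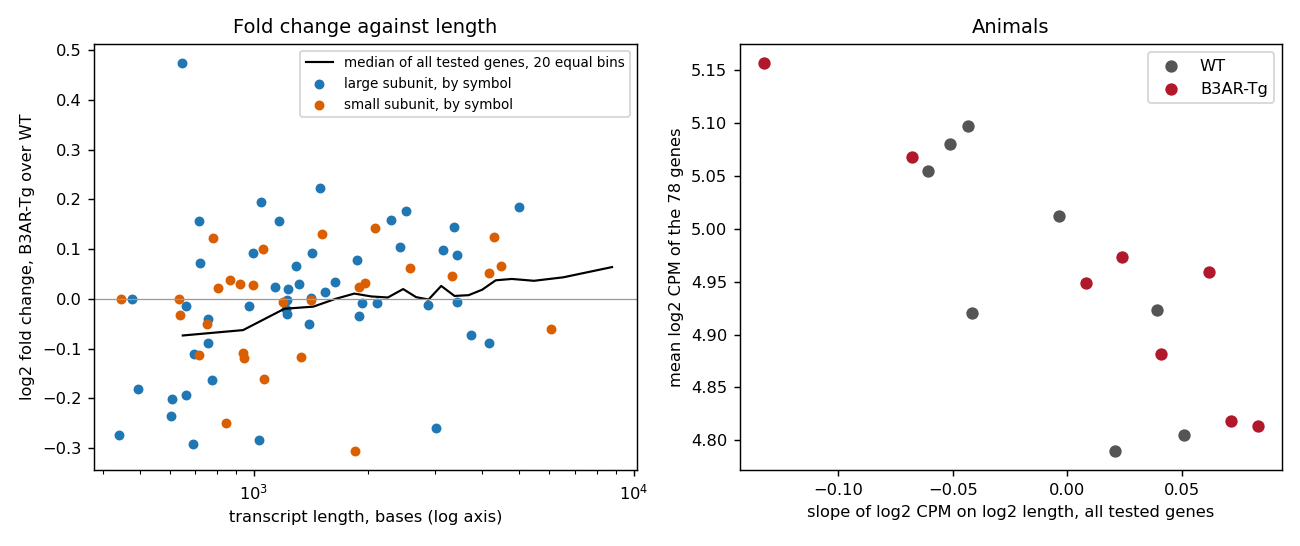
Left, log2 fold change of each of the 78 genes against transcript length in bases (log axis), large-subunit symbols in blue and small-subunit symbols in orange, with the median of all tested genes in 20 bins of length as a line. Right, mean log2 CPM of the 78 genes in each of 16 animals against its slope on log2 length over all tested genes. The slope is of log2 CPM less each gene's mean over the 16 animals. The animals with the lowest slopes have the highest mitoribosomal level in both genotypes.

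The genes around the mitoribosome showed few calls. Of the 5 mitoribosomal proteins with other names, none passed the test with any of the 3 tools (background 4.91%), and none had an unadjusted p under 0.05. Dap3, the GTP-binding mS29, averaged 61.2 ± 7.05 CPM in WT against 68.0 ± 6.62 in B3AR-Tg (log2 fold change 0.15, edgeR adjusted p = 0.321). Ptcd3 (mS39, another pentatricopeptide repeat protein, which guides messenger RNA into the ribosome) was at 199 ± 18.6 and 181 ± 18.8 CPM (−0.13, adjusted p = 0.388). Chchd1, Gadd45gip1 and Aurkaip1 had log2 fold changes of 0.10, 0.11 and −0.02, with adjusted p of 0.605, 0.634 and 0.917. None of 28 assembly factors was called either, with a median log2 fold change of 0.07 and no call by DESeq2 or limma voom. At an unadjusted p under 0.05, 3 of them were higher and 1 lower. The background at that threshold, for this list and those below, is 8.71% of all tested genes higher and 10.6% lower. None of 15 translation factors was called by any of the 3 tools, with a median of 0.04, 1 higher and 1 lower at an unadjusted p under 0.05. The 13 messenger RNAs that the mitoribosome translates had a median of −0.25 and 12 lay below 0, but 0 were called by edgeR and DESeq2 and 2 were lower at an unadjusted p under 0.05. With limma voom, 1 was called lower. With scaling by library total only, their median was −0.14 and 11 lay below 0, and the median of all tested genes was 0.08.

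On the wider lists 4 genes were called higher in B3AR-Tg by edgeR and 0 lower. These were 1 of 20 synthetases, 1 of 8 transcription genes and 2 of 9 regulators. The lists given before these, of 5, 28, 15 and 13 genes, had 0 calls by edgeR. The background is 2.03% of all tested genes called higher and 4.91% called in either direction. Among 20 mitochondrial tRNA synthetases, Sars2, which charges the serine tRNA, went from 4.96 ± 1.34 to 7.30 ± 1.14 CPM (log2 fold change 0.57, edgeR adjusted p = 0.0356). Sars2 starts next to the member Mrps12 and points the other way, yet Mrps12 (uS12m, of the decoding centre) had a log2 fold change of 0.02 (adjusted p = 0.940). The largest difference among the 20 synthetases was that of Lars2, lower in B3AR-Tg, which did not pass the test (−1.35, edgeR adjusted p = 0.419). Lars2 varied widely between animals, at 322 ± 386 CPM in WT against 128 ± 276 in B3AR-Tg. Its medians were 183 and 21.6 CPM, and 6 of 8 B3AR-Tg animals lay below the lowest WT animal. Among 8 genes of mitochondrial transcription and genome upkeep, Polg2, the accessory subunit of the mitochondrial DNA polymerase, went from 2.42 ± 0.46 to 3.82 ± 0.578 CPM (0.66, adjusted p = 0.0239). Among 9 transcriptional regulators, the coactivators Ppargc1a and Ppargc1b rose. Ppargc1a was at 67.5 to 110 CPM in WT, with a median of 87.1, and at 89.8 to 290 CPM in B3AR-Tg, with a median of 118 (0.74, adjusted p = 0.0384). Ppargc1b was at 6.79 ± 1.10 and 9.44 ± 1.40 CPM (0.47, adjusted p = 0.0356). The factors whose motifs were searched did not pass the test, with log2 fold changes of 0.02 for Nrf1 (adjusted p = 0.978), 0.02 for Gabpa (0.898) and 0.04 for Yy1 (0.870). Over 28 alternatives of processing the 4 calls held in 16 (Sars2), 24 (Polg2), 16 (Ppargc1a) and 17 (Ppargc1b). All 4 were lost with the marker covariate, a fit in which 22 of all tested genes were called. Their log2 fold changes were then 0.58 for Sars2, 0.73 for Polg2, 0.67 for Ppargc1a and 0.36 for Ppargc1b. Without the low-count filter Polg2 and Ppargc1b each had an edgeR adjusted p of 0.0510. With limma voom Ppargc1a was not called (log2 fold change 0.56, adjusted p = 0.0615), and 1 of the 20 synthetases was called lower. Polg2 was also lost without B3AR-Tg replicate 5, with an edgeR adjusted p of 0.0544. Sars2 was lost without any 1 of 10 animals (WT replicates 1, 2, 4, 5, 6 or 8, or B3AR-Tg replicates 2, 3, 5 or 7), with an adjusted p of up to 0.0823. Ppargc1a was lost without any 1 of 10 (WT replicates 2, 4, 5, 6, 7 or 8, or B3AR-Tg replicates 1, 3, 5 or 6), with an adjusted p of up to 0.0721. Ppargc1b was lost without any 1 of 8 (WT replicates 1, 2, 4 or 8, or B3AR-Tg replicates 2, 3, 4 or 5), with an adjusted p of up to 0.0850. For these genes too the fibroblast and load markers given above fell in the same animals, and their part in the differences was not tested.

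Neighbours of the members were followed up beyond Mrpl14, Mrps12 and Mrps27. In GENCODE M21, 36 of the 78 members overlap a gene on the opposite strand, and 23 have a tested neighbour outside the members that starts within 1 kb and points away. Mrpl46 and Mrps11 are such neighbours of each other and are not among the 23. Of these 23 neighbours 2 were called, both higher, Tmem63b and Sars2. The background is 4.91% of all tested genes called in either direction and 2.03% called higher. Member and neighbour had fold changes of the same sign in 13 of the 23 pairs (Spearman's rho 0.18, across gene pairs). Ptcd2, which starts next to Mrps27, averaged 46.1 ± 6.99 CPM in WT against 39.6 ± 5.30 in B3AR-Tg (log2 fold change −0.22, edgeR adjusted p = 0.253).

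Other large assemblies gave different medians over the same animals. With the TMM scaling, the background of calls over all tested genes is 2.03% higher and 2.88% lower. The median log2 fold change of all tested genes was 0.0060 with TMM and 0.08 with scaling by library total only. In either direction, library totals called 511 of the 10945 tested genes, DESeq2 804 and limma voom 706, against 537 in the main fit. The 77 genes of cytosolic ribosomal proteins had a median log2 fold change of −0.15, with 70 below 0, 0 called higher and 7 lower. With scaling by library total only, that median was −0.07 with 60 below 0, 1 called higher and 3 lower. The 81 nuclear-encoded subunits of the respiratory chain and ATP synthase had a median of 0.04, with 56 above 0, 2 called higher and 0 lower. With library totals that median was 0.13, with 75 above 0 and 4 called higher, and DESeq2 and limma voom also called 4 higher. The mitoribosomal members, with 41 above 0 and 37 below, lay between these with the TMM scaling, and no test of the difference between the lists was made.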

How the data were processed

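Ribosome-depleted RNA of isolated ventricular myocytes from 16 mice was sequenced in stranded libraries from 500 ng of RNA, per the labels' protocols. The authors deposited estimated counts per gene, 1 column per animal, with no normalization. The submitters' processing notes name Salmon and GRCm39 without version or role, and how the values came to be whole numbers is not given in the sources used here, so any fraction was rounded. Every column was matched to its animal by the name in the title, and the titles call the animals biological replicates. No 2 libraries were alike within sampling noise, with a chi-square per gene between 5.82 and 52.8 over the 56 pairs within genotypes.

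Counts were filtered with filterByExpr (minimum count 10, minimum total 15), scaled with TMM and tested in edgeR 4.0.16 (R 4.3.3) by glmQLFTest, its quasi-likelihood test, with genotype as the only term, two-sided, and Benjamini-Hochberg adjustment over all 10945 tested genes. The threshold was 0.05. The fit was first tested on simulated data. CPM are TMM-scaled, log2 CPM carry a prior count of 2, and group values are mean ± SD over 8 animals. Precision per gene follows from its counts, which were 3 to 2176 per animal and member, and 38 or more outside Mrpl23. Alternatives used DESeq2 1.42.0 and limma 3.58.1. Sequence copies were found with BLAST 2.17.0.

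Lengths and neighbours come from GENCODE M21 (GRCm38), matched by gene ID, with a length for 99.9% of tested genes. Since the build of the counts is named as GRCm39, gene coordinates are not printed, and the promoter coordinates are those of the RefSeq table (GRCm38.p6). Named genes followed a rule: members past the threshold, the 5 Mrpl and 3 Mrps genes with the largest and smallest fold changes, those with the highest and lowest levels, a fixed set of members, and called genes of each list. Other genes, such as Tmem63b, Malsu1, Ptcd2, Mrpl48, Mrpl23-ps1, Yy1, Lars2 and those of the functional sites, were chosen after values were seen. The members and lists were chosen with earlier results of these data known. Mtrfr, mt-Rnr1 and mt-Rnr2 are not analysed here. Replicate numbers of the titles belong to different animals, and their pairing is treated with the alternatives.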

Additional observations from a re-analysis of the deposited data

Results flagged for a closer look

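Among the members and genes named above, 84 groups of 8 animals were searched for a single animal far from the rest, on log2(CPM + 0.1), and 5 were found where chance would give about 4.2 (1 in 20). The measure is the gap to the nearest animal as a share of the group's range, set against the 95% critical value of Dixon's test for 8 animals. Mrps2 in WT reached 0.557, since WT replicate 8 was at 13.2 CPM (134 counts) and the other 7 between 16.5 and 19.7. Mrps18a in B3AR-Tg reached 0.567, with B3AR-Tg replicate 2 at 40.5 CPM and the others between 34.6 and 37.1. Mrps18b in B3AR-Tg reached 0.538, with B3AR-Tg replicate 3 at 29.3 CPM and the others between 17.6 and 22.3. Sars2 in WT reached 0.733, with WT replicate 7 at 8.20 CPM (56 counts) and the others between 4.02 and 4.86. Gabpa in B3AR-Tg reached 0.551, with B3AR-Tg replicate 3 at 47.3 CPM and the others between 55.0 and 62.1. B3AR-Tg replicate 3 also had the highest mean mitoribosomal level of the 16 animals. Its slope on length, of log2 CPM less each gene's mean over the 16 animals, was the lowest.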

How the results depend on the processing

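The 28 refits covered scaling, filters, tools, a replicate block, a covariate of other cells' markers, each animal left out, and 2 alternatives chosen after seeing the data (a transcript length offset, and Mrpl23 pooled with Mrpl23-ps1). The 2 called members became 1 with scaling by library total only, without the low-count filter and with the replicate block (Mrpl14 each time), and 0 with the covariate. Without 1 animal in turn they ranged from 0 to 2. The large subunit had 0 calls with the covariate and 0 to 1 without 1 animal. The small subunit had 0 calls with library totals, without the filter, with the block and with the covariate, and 0 to 1 without 1 animal. The cause was not tested. Mrpl14 kept its call in 19 of 28 refits and Mrps27 in 14. The medians of the large and the small subunit were both −0.12 with the covariate. Without the covariate, large minus small as a median over members within each animal differed between genotypes by −0.12. At an adjusted p under 0.1, or with the 5 other proteins added, the count stayed at 2.

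Replicate numbers gave no sign of pairing: deviations of same-numbered animals correlated between −0.22 and 0.094, 0 of 8 pairs over 0.1, and 0 of 16 animals correlated best with their own number. With the replicate block 230 genes were called in place of 537, Mrps27 had an edgeR adjusted p of 0.0935 and Mrpl14 one of 0.0498. Sars2, Polg2 and Ppargc1b had 0.0545, 0.0935 and 0.0679, and Ppargc1a 0.0422. The covariate left 22 genes, and leaving out WT replicate 4, B3AR-Tg replicate 5 or B3AR-Tg replicate 8 left 272, 277 and 345. DESeq2 called 804 and limma voom 706.

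Of 1092 fold changes of 39 named genes, 947 kept direction and call, 62 lost the call and 83 changed sign, in 14 genes. Mrpl33, Mrps21 and Mrps36 turned to −0.0026, −0.0024 and −0.0029 with RLE scaling, −0.0060, −0.0076 and −0.0084 with upper quartile scaling, −0.0026, −0.0026 and −0.0035 at a minimum count of 20, −0.0021, −0.0021 and −0.0032 with DESeq2, −0.013, −0.032 and −0.048 with limma voom, and −0.0015, −7.0e-05 and −0.017 with the block. With limma voom Mrpl23 was 0.067 and Mrpl12 −0.19, and with the block Mrpl12 was −0.012. With library totals Mrpl42, Mrps18a, Mrps18c and Aurkaip1 were 0.070, 0.030, 0.048 and 0.061, and with the length offset 0.056, 0.011, 0.044 and 0.013. Without the filter Mrpl42 was 0.0044. With the covariate Mrps31, Mrps26, Mrpl33, Mrps21, Mrps36, Mrps5, Mrpl12 and Mrps30 were −0.036, −0.031, −0.12, −0.18, −0.23, −0.12, −0.060 and −0.17. Without 1 animal in turn the ranges were −0.071 to 0.040 for Mrpl42, −0.10 to 0.088 for Nrf1, −0.045 to 0.026 for Mrpl33, −0.044 to 0.055 for Mrps21, −0.084 to 0.055 for Mrps36, −0.060 to 0.12 for Mrpl12, −0.062 to 0.0054 for Mrps18c, −0.46 to 0.11 for Mrpl23, −0.0036 to 0.088 for Mrps30, −0.0071 to 0.12 for Mrps5 and −0.066 to 0.020 for Aurkaip1. Depth limits Mrpl23 most, with as few as 3 counts in an animal.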
